A study of Chromochloris zofingiensis with 6 samples.

Results

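Of 15364 gene IDs counted in the oil-rich green microalga Chromochloris zofingiensis, 266 nuclear IDs were clearly lower in cultures kept with the antibiotic levofloxacin. They were selected on the measured values of these same libraries, in CPM (counts per 1e6 reads assigned to genes, scaled by the library's total). An ID was a member if its lowest control library was at least 1.5 times its highest levofloxacin library, its mean control level was at least 10 CPM, and its name began with Cz01g to Cz16g or Cz19g. Of 13919 IDs with these prefixes, 9380 reached 10 CPM in the controls, and 2.84% of those met the rule. Nuclear IDs are here those with these prefixes, so Cz17, Cz18 and unplaced sequence are left out. The prefixes are taken for chromosome names, as in the species' published gene models; the files themselves do not say so. Because the rule used the comparison of levofloxacin with control, the differences between the groups are given as a description. Where calls of a test across all IDs are counted among members, nothing is read from them.

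The study asked how the alga removes levofloxacin. Cells of strain ATCC 30412 were grown in the dark in CZ-M1 medium with 30 g/L glucose, at 25 °C and 150 rpm, and RNA was taken from 100 mL of culture at 15 days. Both groups shared this heterotrophic growth, and they differed in levofloxacin, which was absent in the controls (n = 3) and at 10 mg/L in the treated cultures (n = 3). The labels do not say whether the 3 samples of a group were separate cultures, so the spread between them may be in part technical. RNA came from whole cultures, so fewer cells in a given state and less RNA per cell cannot be told apart.

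As background, levofloxacin is a fluoroquinolone that blocks the bacterial enzymes DNA gyrase and topoisomerase IV, which keep DNA untangled while it is copied. Chloroplasts and mitochondria descend from bacteria, and in plants such as Arabidopsis a gyrase of the bacterial type, encoded in the nucleus, serves these organelles. Most organelle proteins of plants and algae are likewise made from nuclear genes. On glucose in the dark, C. zofingiensis is known for building up lipids and the red ketocarotenoid astaxanthin. The files do not pair gene IDs with names, so no member could be assigned to a pathway, and 2 members are given by ID. The others are given by prefix and coding length, the length of the coding sequence recovered from the deposited tables.

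Depth was similar in all libraries, from 28482776 to 36223195 assigned reads, with 14124 to 14236 IDs at 10 counts or more. The controls varied more than the treated cultures, with a biological coefficient of variation of 24.9% against 10.9% over all tested IDs. The members were well covered, with at least 136 counts in each control library. In levofloxacin libraries 31 of the 266 had under 100 counts in at least 1 library, and the lowest count was 10.

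Together the members took 3.63, 2.70 and 3.27% of the assigned reads in the controls (replicates 1, 2 and 3 in that order, as in later lists of 3 levels or counts per group). With levofloxacin they took 1.32, 1.28 and 1.248%. The treated libraries were nearly level with each other, while control replicate 2 was the lowest control. The group means were 3.20 ± 0.467% (SD, n = 3) in controls and 1.28 ± 0.0346% with levofloxacin. Per unit of length the members held 2.70 ± 0.281% of all FPKM (fragments per kilobase of gene and per 1e6 assigned reads) in controls and 1.10 ± 0.0392% with levofloxacin. Leaving out control replicate 1, 2 or 3 gave control means of 2.98, 3.45 and 3.16% of the reads.

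Levels in the treated cultures were close to each other for the typical member. Expressed as a percentage of its own mean control CPM, the median member stood at 40.9, 38.6 and 38.3% in the levofloxacin libraries. In the controls the medians were 115, 82.8 and 101%. Control replicate 2 thus had the lowest median of the controls, and it was the lowest control, on which the rule turned, in 187 of 266 members.

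**Figure D1:**
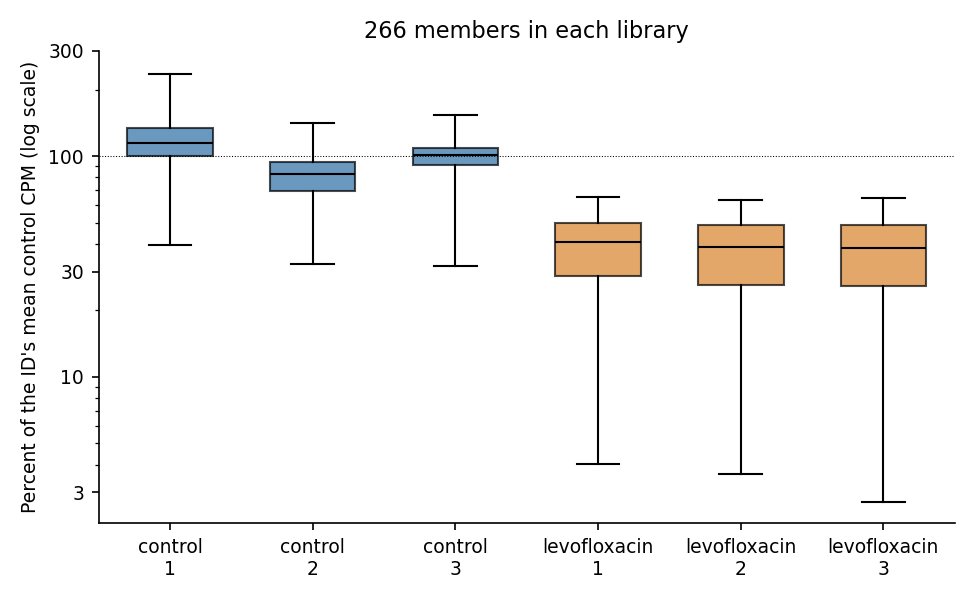
Level of the 266 members in each library, as a percentage of each ID's mean control CPM on a log scale. Boxes span the quartiles with the median as a line and whiskers reach the lowest and highest member. The levofloxacin medians lie between 38.3 and 40.9%, and control replicate 2, at 82.8%, is the lowest control.

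The ratio of group means had a median of 2.52 (quartiles 2.08 and 3.68) and ran from 1.58 to 22.8. It reached 2 in 212 members, 3 in 96, 4 in 55 and 8 in 14. The stricter measure, the lowest control divided by the highest levofloxacin library, is called separation here. Its median was 1.74 (quartiles 1.59 and 2.04), and 193 members (72.6%) had a separation under 2. A separation of at least 3 was found in 19 members and of at least 4 in 11.

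The boundary of the group ran through a continuous range of values. The 3 members just inside had separations of 1.501, 1.503 and 1.503, and the 3 IDs just outside had 1.498, 1.498 and 1.497. Between 1.5 and 1.6 there were 75 members, and between 1.4 and 1.5 there were 102 IDs that met the rule in all but the factor. Among the 9380 IDs at 10 CPM or more, 20.5% had each control above each levofloxacin library by any margin. The mirror rule, with the treated libraries on top, was met by 170 nuclear IDs.

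**Figure D2:**
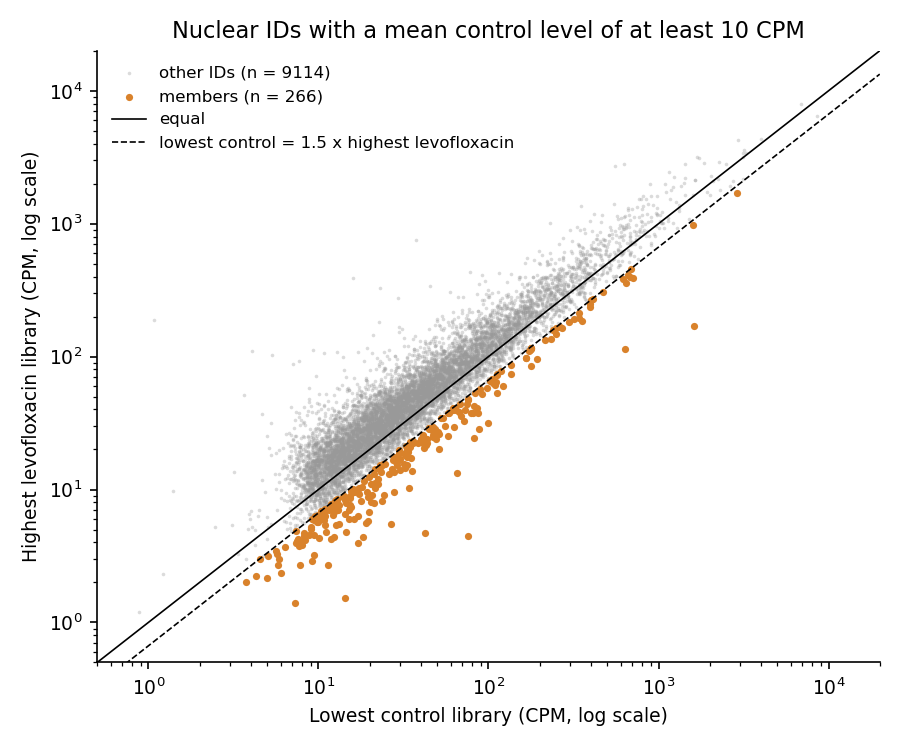
Lowest control library against highest levofloxacin library for the 9380 nuclear IDs with a mean control level of at least 10 CPM, on log axes. The 266 members lie on or below the dashed line of 1.5-fold, and most of them lie close to it.

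In edgeR's quasi-likelihood test over the whole count table (Benjamini-Hochberg adjusted p under 0.05), 12.1% of the 14236 tested IDs were called lower. All 266 members were among the 1717 lower calls and made up 15.5% of them, a count that the rule itself largely fixes. Leaving out levofloxacin replicate 1, 2 or 3 lowered the member calls to 99, 185 and 96, and the calls over the whole table to 141, 389 and 138 (0.983, 2.71 and 0.962% of tested IDs). Leaving out control replicate 3 gave 232 members among 622 lower calls (4.34%), and without control replicate 2 all 266 were among 2354 (16.4%). Of the 9114 other IDs at 10 CPM or more, 10.5% were called lower. The log2 fold change (levofloxacin against control) had a median of -1.39 in the members, with quartiles of -1.94 and -1.11 and extremes of -4.57 and -0.71. Its median was 0.01 among the other IDs at 10 CPM or more and 0.00 over all tested IDs.

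The widest gap was that of Cz14g07020, on Cz14 with a coding length of 4251 bases. Its counts were 2513, 2756 and 2782 without levofloxacin and 93, 97 and 142 with it. In CPM these were 85.7, 76.1 and 81.0 against 3.27, 2.94 and 4.43, so the controls were close together and far above each treated library. The means were 80.9 ± 4.82 and 3.55 ± 0.785 CPM (SD, n = 3 each), a separation of 17.2 and a log2 fold change of -4.57 ± 0.19 (SE, edgeR). Per length its level was 19.04 ± 1.13 FPKM in controls and 0.834 ± 0.184 FPKM with levofloxacin.

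The most abundant member was Cz14g15120, also on Cz14, with a coding length of 1587 bases. It stood at 4699, 3208 and 2887 CPM without levofloxacin and at 1700, 1588 and 1647 CPM with it. The treated libraries were close together, whereas control replicate 1 stood above the other controls. The means were 3598 ± 967 and 1645 ± 56.0 CPM, a separation of 1.70 and a log2 fold change of -1.19 ± 0.23 (SE, edgeR). Without control replicate 1 the log2 fold change was -0.88. The 5 most abundant members, of which it is one, held 27.9 to 30.8% of all member reads in the controls and 24.5 to 25.9% with levofloxacin.

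Beyond these, the members with a separation of at least 4 covered a wide range of levels. They included the members at ranks 2 and 4 by control level. One, on Cz07 with a coding length of 1254 bases, had 1790, 1610 and 2806 CPM in the controls and 150, 171 and 113 CPM with levofloxacin. The other, on Cz01 with 1584 bases, had 721, 639 and 1436 CPM in the controls and 111, 115 and 85.5 CPM with levofloxacin. In both, control replicate 3 was the highest and levofloxacin replicate 3 the lowest library, and the groups lay far apart. The ratio of means was 14.3 for the first and 8.99 for the second, with log2 fold changes of -3.89 ± 0.28 and -3.22 ± 0.33 (SE, edgeR). These examples, and the others given without an ID, were chosen after their values were seen.

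At a low level, a member on Cz06 with a coding length of 1893 bases had 14.3, 18.9 and 23.8 CPM in the controls and 1.37, 1.51 and 1.47 CPM with levofloxacin. A long member on Cz02, of 6900 bases, had 55.1, 42.6 and 57.9 CPM in the controls and 4.04, 4.70 and 3.87 CPM with levofloxacin. Both had controls that varied little beside the distance to the treated libraries, with separations of 9.46 and 9.07. A member on Cz13 of 1293 bases differed in this respect. It had 275, 65.5 and 143 CPM in the controls and 13.3, 8.33 and 11.8 CPM with levofloxacin, so that its ratio of means was 14.5 but its separation 4.92.

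**Figure D3:**
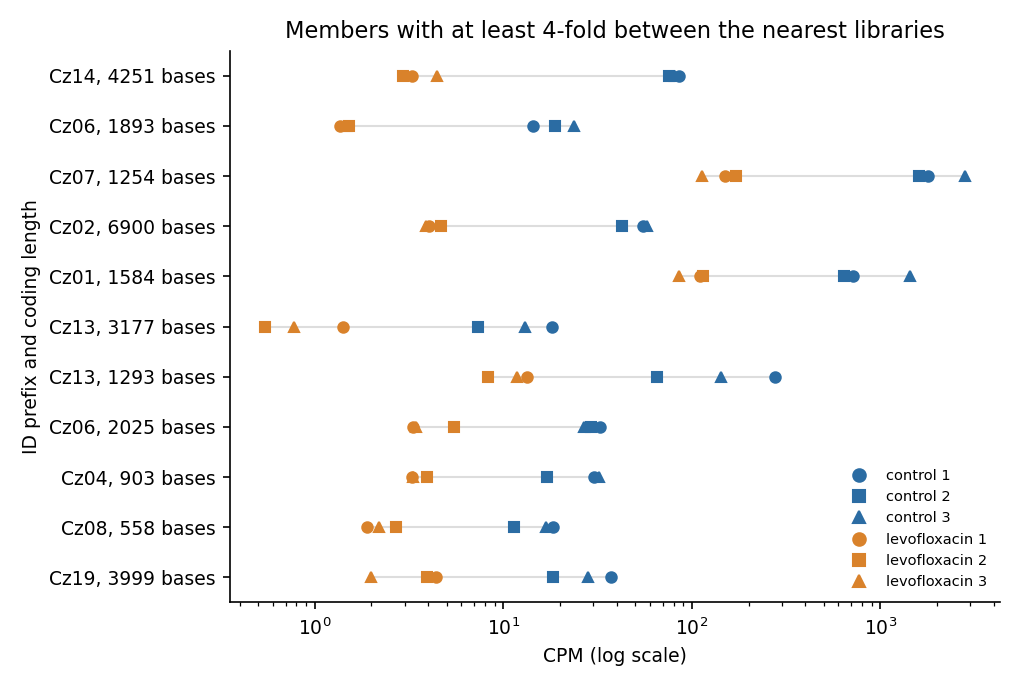
CPM in each library, on a log scale, of the 11 members with a separation of at least 4, labelled by ID prefix and coding length. Each row shows 3 control libraries (blue) and 3 levofloxacin libraries (orange) with a gap between them, from 17.2-fold at the top to 4.13-fold at the bottom.

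In CPM, the abundance of the members in controls was close to that of other IDs at 10 CPM or more. Their mean control level had a median of 35.1 CPM (quartiles 19.1 and 89.8), against 37.9 CPM (20.4 and 83.9) for the other 9114 IDs. With levofloxacin the medians were 14.0 and 40.3 CPM. In controls 71 members lay between 10 and 20 CPM, 133 between 20 and 100, 59 between 100 and 1000, and 3 above 1000 CPM. Per length, the median control level was 25.1 FPKM in members and 31.6 FPKM in the others. Reads did not vanish from any member: 39 were under 5 CPM in each levofloxacin library, and 0 were under 1 CPM in each. The member with the fewest counts, on Cz04 with 1353 bases, had 644, 136 and 299 counts in the controls and 35, 66 and 10 with levofloxacin.

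The 3 controls were not equal in these genes. Control replicate 1 was the highest control in 164 of 266 members (61.7%) and replicate 3 in 79, while replicate 2 was the highest in 23 and the lowest in 187 (70.3%). Scaled by library total, the other 9114 IDs had the opposite order, with replicate 2 highest in 56.5% and replicate 1 lowest in 60.5%. Under TMM scaling (edgeR's trimmed mean of M-values) replicate 1 was highest in 73.7% of members and replicate 2 lowest in 82.3%. These shares rose in the other IDs as well, from 21.5 to 35.5% and from 16.0 to 30.4%. In the other IDs the opposite order did not hold under every scaling. Under TMM replicate 2 was highest in 36.2% and replicate 1 in 35.5%, and under RLE scaling (DESeq2's median-of-ratios kind) replicate 1 was highest in 38.2% and replicate 2 in 33.6%. The rule takes in an ID by its lowest control, whichever replicate that is. Its part in the order of the controls among members was not tested.

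The levofloxacin libraries showed a weaker order, with replicate 1 highest in 121 members, replicate 2 in 91 and replicate 3 in 54. Spread within a group was also larger in controls, where the median coefficient of variation of the members was 21.1%, than with levofloxacin, where it was 10.2%. For the other IDs at 10 CPM or more these medians were 15.8 and 6.66%, so the members varied more than the others in each group. With levofloxacin the members also stood lower, at a median of 14.0 CPM against 40.3 CPM. The part of read number in this spread was not tested.

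**Figure D4:**
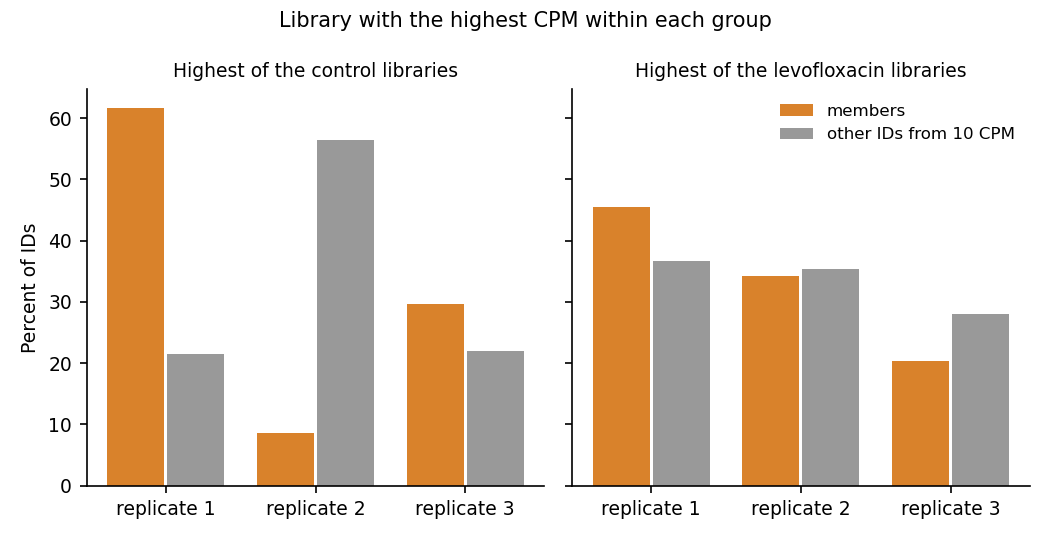
Percentage of IDs in which each replicate had the highest CPM of its group, for the 266 members (orange) and the 9114 other nuclear IDs at 10 CPM or more (grey), by library total. Control replicate 1 is the highest control in 61.7% of members and in 21.5% of the others; under RLE scaling these shares are 75.6 and 38.2%.

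By their controls the members ranged from steady to steep, classes drawn after the values were seen. In 85 members (32.0%) the coefficient of variation among controls was under 15%, and these had a median ratio of means of 1.98. By library total, control replicate 1 was at least 2 times replicate 2 in 67 members (25.2%), as in 2.60% of the other IDs at 10 CPM or more. TMM factors of 0.912 for control replicate 1 and 1.06 for replicate 2 raise this ratio in every ID. The classes were not drawn under TMM. The 67 steep members had a median ratio of means of 4.49, which was 3.04 without control replicate 1. Of the 55 members with a ratio of means of at least 4, 38 were steep and 3 were steady. Without control replicate 1 the number of members at that ratio was 31, of which 16 were steep. A high control replicate 1 raises the ratio of means, so the bounds of the classes in part set these values. The median separation was 1.88 in the steep members and 1.68 in the steady ones. The steep members were also lower in level, with medians of 23.6 CPM in controls and 5.81 CPM with levofloxacin, against 46.8 and 22.7 CPM in the steady ones.

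Among steady members, one on Cz02 of 1257 bases had 81.9, 92.2 and 85.0 CPM in the controls and 21.9, 24.3 and 23.5 CPM with levofloxacin. Both groups were tight, and its log2 fold change was -1.94 ± 0.10 (SE, edgeR). Another, on Cz15 and 13077 bases long, had 113, 115 and 118 CPM in the controls and 40.1, 53.0 and 45.1 CPM with levofloxacin. The steepest member, on Cz07 with 1398 bases, had 31.6, 4.53 and 4.28 CPM in the controls and 2.25, 1.12 and 0.687 CPM with levofloxacin. Its ratio of means of 9.96 therefore rested on control replicate 1, and its separation was 1.90.

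The rule was applied with each library left out, so that library's own value took no part in the choice. It was compared with the extreme library of the other group, which the rule did use. Higher shares in the chosen IDs than in all eligible IDs are therefore in part set by the rule. Without control replicate 2, 567 IDs were chosen, and in 282 of them (49.7%) that library also exceeded the highest levofloxacin library by 1.5 times. This was the lowest share. It was 73.5% of 343 IDs for control replicate 1 and 85.8% of 317 for control replicate 3. For levofloxacin replicates 1, 2 and 3 it was 77.3% of 344, 85.8% of 310 and 91.4% of 291. For a left-out levofloxacin library, the IDs that met the condition are by definition the 266 members. Those shares therefore only compare the number of members with the number chosen, and they are no check of the left-out library. Over all eligible IDs the same condition on the left-out library was met by 3.96 to 8.82%. By any margin, the left-out library lay on the side of its own group in 92.4 to 100% of the chosen IDs and in 25.6 to 47.2% of all eligible IDs. Both the lowest share of chosen IDs and the highest share of eligible IDs were those of control replicate 2. These shares describe the libraries at hand, and anything that all libraries of a group have in common beside levofloxacin was not tested.

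Members had longer coding sequences than the other IDs at 10 CPM or more, a description with no test. The median was 1524 bases in members (quartiles 1012 and 2607; range 237 to 13605), against 1251 bases (753 and 2055) for the others. Lengths of 5000 bases or more occurred in 30 members (11.3%) and in 3.599% of the others, and lengths under 500 bases in 15 members (5.64%) and in 11.96% of the others. With the eligible IDs in quintiles of length, from the shortest to the longest, the share that were members was 1.39, 2.41, 3.29, 3.03 and 4.05%. Within tertiles of control FPKM the median was 2199 bases in members and 1782 bases in others in the lowest tertile, 1188 and 1131 bases in the middle one, and 1119 and 906 bases in the highest. The difference thus had the same sign at each level, and it was smallest in the middle tertile. Longer genes collect more reads at a given FPKM, and the part of read number in these shares was not tested.

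Members came from each of the 17 chromosome prefixes in the rule, in numbers from 7 to 26. The share of eligible IDs that were members ran from 1.56% on Cz05 and 1.57% on Cz14 to 3.83% on Cz19 and 4.55% on Cz13, around the overall 2.84%. With counts of 11, 7, 7 and 17 members these shares are imprecise. Outside the prefixes of the rule, the same thresholds were met by 9 of 165 IDs at 10 CPM or more on Cz17, 3 of 150 on Cz18 and 11 of 339 on unplaced sequence. They were also met by 2 of 8 mitochondrial IDs and by the 1 chloroplast ID at that level.

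**Figure D5:**
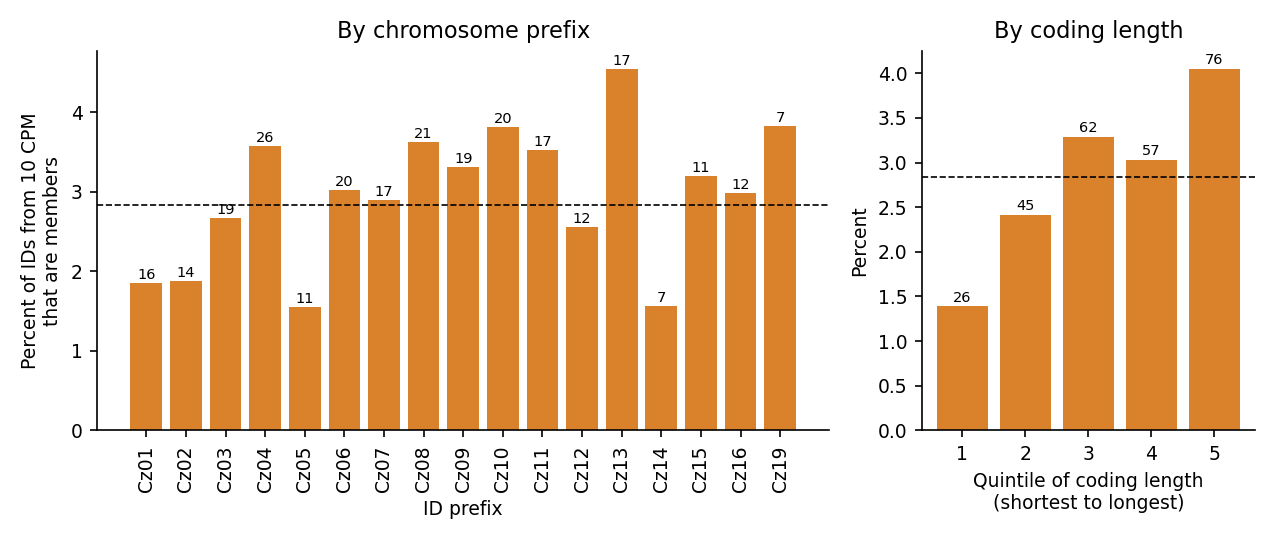
Percentage of nuclear IDs at 10 CPM or more that are members, by chromosome prefix (left) and by quintile of coding length (right), with the number of members above each bar. The dashed line marks the overall 2.84%. The share is 1.39% in the shortest and 4.05% in the longest quintile.

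Some members were neighbours. Numbers in the IDs stand for gene order here, without coordinates to check them against. In 25 places 2 consecutive IDs were both members, so that 50 members (18.8%) had a member next to them, and no run was longer than 2. Of the 532 IDs next to a member, counted once per side, 9.40% were members, while 1.91% of the 13919 IDs with prefixes of the rule were. At a separation of at least 2, where 73 members were left, 1 such pair was found.

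Partners in a pair could follow each other closely. On Cz10, partners of 519 and 624 bases had nearly the same level in every library. The first had 43.1, 47.1 and 67.2 CPM in the controls and 19.6, 20.9 and 21.7 CPM with levofloxacin. The second had 40.2, 45.1 and 66.7 CPM in the controls and 19.98, 19.6 and 24.1 CPM with levofloxacin. Another pair on Cz10, of 918 and 1356 bases, had the first partner at 0.85 to 0.94 times the CPM of the second across the 6 libraries. A pair on Cz13, of 894 and 3177 bases, did not, since the ratios of means were 2.005 and 14.1. The standard deviation of the log2 level ratio across libraries had a median of 0.29 in the 25 pairs and 0.48 over all 35245 pairings of members. It spans both groups, so unlike fold changes of the partners add to it, and their part in this difference was not tested. The order of the controls was the same in 28.0% of the neighbour pairs and in 31.7% of all pairings. Whether neighbours share reads, as overlapping or near-identical genes can when counted without a stated strand setting, was not tested.

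IDs next to a member that were not members themselves were not chosen by the rule. Of 458 such nuclear IDs in the edgeR test, 75 (16.4%) were called lower and 37 (8.08%) higher. Among the 12465 tested nuclear IDs that were neither members nor next to one, 10.0% were called lower and 10.0% higher. The median log2 fold change was -0.08 (quartiles -0.42 and 0.22) next to members and 0.01 (-0.29 and 0.29) elsewhere. Without control replicate 3, 21 IDs next to members (4.59%) were called lower, against 2.47% of those neither members nor next to one. Without levofloxacin replicate 1, 2 or 3 the calls next to members were 5, 13 and 3 (1.09, 2.84 and 0.655%), against 0.201, 1.32 and 0.217% elsewhere. The share next to members was the higher one in each of these fits, on few calls.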

How the data were processed

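The deposited count table holds the authors' raw read counts per gene ID, 1 column per library. The submitters' processing notes name HTSeq 0.6.1 and HISAT2 2.0.6. Genome build, annotation and strand setting: not given in the sources used here. The deposited FPKM table was tested against the counts: a whole-number length per ID and a total per library gave each FPKM value to within 1.15e-06 percent. Of the 15199 lengths so recovered 99.7% are multiples of 3 and are called coding lengths. The 5 IDs found in the FPKM table alone were not used.

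CPM used the column totals. Counts were fitted with edgeR 4.0.16 in R 4.3.3 over all 6 libraries (filterByExpr, TMM, quasi-likelihood F test, Benjamini-Hochberg over 14236 IDs, threshold 0.05). Standard errors were obtained as the log2 fold change over the root of the F statistic. The fit was tested on simulated data. DESeq2 1.42.0, limma 3.58.1 on voom values and on log2(FPKM + 1), RLE scaling, other thresholds and left-out libraries were alternatives. The 2 IDs given are the member with the largest separation and the one with the highest mean control CPM. Gene lists by function could not be formed from IDs. The members and comparisons were chosen with earlier results of these data known. Reads carry no molecular identifiers.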

Additional observations from a re-analysis of the deposited data

How the results depend on the processing

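Under TMM scaling 260 IDs met the rule, 228 of them members, and under RLE scaling 259, of which 223 were members. The factor set the size most: 654 IDs met the lower factor tried and 73 a factor of 2. With no minimum level 491 IDs qualified, and a left-out library gave 291 to 567, the highest without control replicate 2. In edgeR, 96 to 266 members were called lower when a library was left out, where 0.962 to 16.4% of all tested IDs were. DESeq2, RLE and the fit without a filter called all 266, beside 14.9, 12.1 and 11.1% of all tested IDs. Calls were 255 with limma-voom (9.95% of all), and 261 and 265 with limma on log2(FPKM + 1) and log2(FPKM + 0.1) (8.56 and 8.76%). With the replicate block 266 members were called lower, beside 10.7% of all tested IDs. Of their neighbours 71 (15.5%) were called lower, against 8.58% of nuclear IDs neither members nor next to one. Deviations of same-numbered libraries from their group means correlated at 0.16, 0.05 and 0.04, and those of differently numbered ones at -0.159 to 0.097. The labels state no pairing, and the numbers were not taken as pairs. Over the left-out fits, lower calls next to members ran from 3 without levofloxacin replicate 3 (0.655%, against 0.217% elsewhere) to 98 without control replicate 2 (21.4%, against 14.5%). They were 76 with RLE and 98 with DESeq2 (16.6 and 21.4%, against 9.99 and 13.9% elsewhere). Neighbouring pairs ran from 27 to 67 over the left-out fits, with 67 without control replicate 2, and numbered 1 at a factor of 2. The median coding length stayed between 1419 and 1584 bases in each setting tried. Scalings of the control order and of the left-out share were chosen after seeing the data: control replicate 1 was highest in 73.7% (TMM) and 75.6% (RLE) of members, and the share held by control replicate 2 was 40.2% under TMM. For Cz14g15120 the edgeR call was lost without any 1 levofloxacin library, at log2 fold changes of -1.21 to -1.18. The cause of these changes was not tested. Having 3 libraries in each group, with uneven controls, limited the precision.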
